A study of Mus musculus with 18 samples.

Results

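The genes described here are those of the Wnt ligands, their Frizzled and Lrp receptors, the secreted antagonists of the Sfrp, Dkk and Wif families, and the transcriptional genes Axin2 and Lef1. They were chosen by gene symbol, with a rule that used no values, though earlier results of these data were known. The rule took every probe set with 1 gene symbol that began with Wnt, Fzd, Sfrp or Dkk and a digit, or that was Wif1, Lrp5, Lrp6, Axin2, Lef1 or Tcf7. It found 83 of 45101 probe sets, which stood for 43 of 18193 genes. These were 19 ligand genes, 10 Frizzled genes, the coreceptor genes Lrp5 and Lrp6, 9 antagonist genes, Axin2 and Lef1, and Fzd10os, an opposite-strand transcript at the Fzd10 gene that the rule also matched. Tcf7 had no single-gene probe set and is not analysed here.

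Total RNA of 9 TRAMP tumours and of 9 normal mouse prostates was hybridised to 1 Affymetrix array each. TRAMP stands for Transgenic Adenocarcinoma of the Mouse Prostate, a model in which the tumour antigens of a simian virus are expressed from the probasin promoter, which is active in prostate epithelium. The labels give the normal samples as ventral and dorsolateral lobes. They give no age, strain, treatment, tumour stage or tumour lobe. Whether each sample is a separate mouse is not stated either, and the p-values then cover only sample-to-sample spread, part of which may be technical.

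Wnt proteins are secreted signals that bind a Frizzled receptor together with the coreceptor Lrp5 or Lrp6. In the canonical branch this stops the breakdown of beta-catenin, which then acts with Lef1 and Tcf proteins at target genes, of which Axin2, itself a brake on the pathway, is a widely used example. Other branches act through Rac and Jun kinases on cell polarity and movement, and the pathway is known for its part in the budding and growth of the developing prostate. Sfrp and Wif1 proteins bind Wnts outside the cell, while Dkk1 and its relatives act on the Lrp coreceptors.

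The promoters of Axin2, Fzd5 and Lef1 are shown for different reasons. Axin2 and Fzd5 changed in the tumours and had a promoter in the RefSeq table of assembly GRCm38.p6. Lef1, which did not pass the test, was added because 1 of its 4 listed starts held the sequence that Lef1 and Tcf proteins bind. Each promoter is given 5′ to 3′ on the strand of the gene as the 250 bases before the start. Capitals mark CTTTG or its reverse complement CAAAG, the core of that sequence. The Axin2 promoter lies at chr11:108920099-108920348 on the plus strand, the Fzd5 promoter at chr1:64737751-64738000 on the minus strand, and the Lef1 promoter at chr3:131156044-131156293 on the plus strand.
Axin2: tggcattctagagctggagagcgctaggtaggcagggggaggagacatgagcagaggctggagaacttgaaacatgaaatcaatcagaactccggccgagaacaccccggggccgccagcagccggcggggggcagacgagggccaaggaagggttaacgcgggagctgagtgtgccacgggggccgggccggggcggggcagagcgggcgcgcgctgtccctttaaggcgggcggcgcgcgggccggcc
Fzd5: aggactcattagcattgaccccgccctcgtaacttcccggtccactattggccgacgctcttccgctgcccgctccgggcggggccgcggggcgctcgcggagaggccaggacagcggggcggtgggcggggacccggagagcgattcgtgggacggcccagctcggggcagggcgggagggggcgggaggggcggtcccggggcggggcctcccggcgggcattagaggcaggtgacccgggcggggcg
Lef1: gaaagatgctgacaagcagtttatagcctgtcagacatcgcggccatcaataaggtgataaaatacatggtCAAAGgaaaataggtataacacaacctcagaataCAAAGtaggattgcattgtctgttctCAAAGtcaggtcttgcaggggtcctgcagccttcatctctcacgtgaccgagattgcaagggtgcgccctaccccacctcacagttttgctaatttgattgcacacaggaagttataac

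The longer spellings searched on both strands were the core CTTTG followed by AA, AT, TA or TT. Of 32851 mouse promoters of the same length, 14.8% held at least 1 of the longer spellings and 48.6% held the core. The Lef1 promoter held 3 cores, which began 179, 145 and 119 bases before the start, and 1 longer match, which began 147 bases before it. This start of Lef1 was picked after the matches were seen, and the other 3 held only cores. The Axin2 and Fzd5 promoters, with 69.2% and 76.4% G and C, held neither, which says only that these letters are not in these windows. Fzd3 and Fzd6, the other genes that changed, are named here without a promoter sequence.

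Values below are log2 signals, the log2 of the MAS5 signal plus 16, in which a difference of 1 is a doubling of a bright gene and understates the change of a dim one. The adjusted p-values are from limma over 12793 genes, with calls at an adjusted p under 0.05, and a gene is represented by its brightest kept probe set. A probe set had to exceed the 40th percentile of the array on 9 or more of the 18 arrays to be kept, and it is called dim on an array where it did not exceed it. That percentile lay at log2 6.91 to 7.41 on tumour arrays and at 7.05 to 7.22 on normal arrays. Of the 43 genes, 28 passed this filter, among them 9 of 10 Frizzled genes and 7 of 9 antagonists but 8 of 19 ligands.

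The samples were mixed tissue, so fewer cells of a type and less RNA per cell cannot be told apart. For marker lists, measured means that a gene had a probe set, and only genes past the filter were tested. Genes of the luminal cells that line the normal gland were present in both groups. Of 10 listed luminal markers 8 were measured, 6 were tested and 1 was called lower. Their mean log2 signal per array was 8.01 to 11.97 in tumours and 10.15 to 13.01 in normal prostate. Seminal vesicle genes, 6 of 8 measured, ranged from 5.3 to 15.57 in tumours and from 5.63 to 12.09 in normal prostate, and were highest in tumours 3, 5 and 7 and, among normal samples, in normal prostate 9. Urothelial genes, all 5 of the list measured, ranged from 7.19 to 13.42 in tumours and from 8.14 to 13.56 in normal prostate, with tumour 4 and normal prostate 3 highest. Adipocyte genes, 6 of 8 measured, had means of 5.91 to 9.32 in tumours and 6.1 to 13.0 in normal prostate. Of these genes 5 were tested, and all 5 were called lower. Macrophage genes, 10 of 10 measured and 3 called higher, had means of 8.74 to 11.78 in tumours and 8.02 to 10.03 in normal prostate. Poly-A spike controls were bright on 5 tumour and 6 normal arrays and dim on 4 tumour and 3 normal arrays. The log2 ratio of 3′ to 5′ actin probe sets, which grows as RNA degrades, was 1.12 ± 0.507 in tumours and 1.71 ± 0.694 in normal prostate (SD, n = 9 each).

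Of the 28 measured genes, 4 changed. Fzd3 and Axin2 rose in the tumours, and Fzd5 and Fzd6 fell. That is 14.3% of the members against 24% of all genes tested, of which 11.3% rose and 12.7% fell, so the share called was not above the background. The median log2 fold change, tumour over normal prostate, was 0.21 over the 28 genes and -0.01 over all 12793. Estimates were positive for 18 of the 28. Among probe sets, 4 of the 43 kept were called, against 19.6% of all that were kept, and without the filter 5 of 83 were called, against 11.5% of all. None of the 15 genes below the filter was called when fitted without it, where 16.4% of all genes were.

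**Figure D1:**
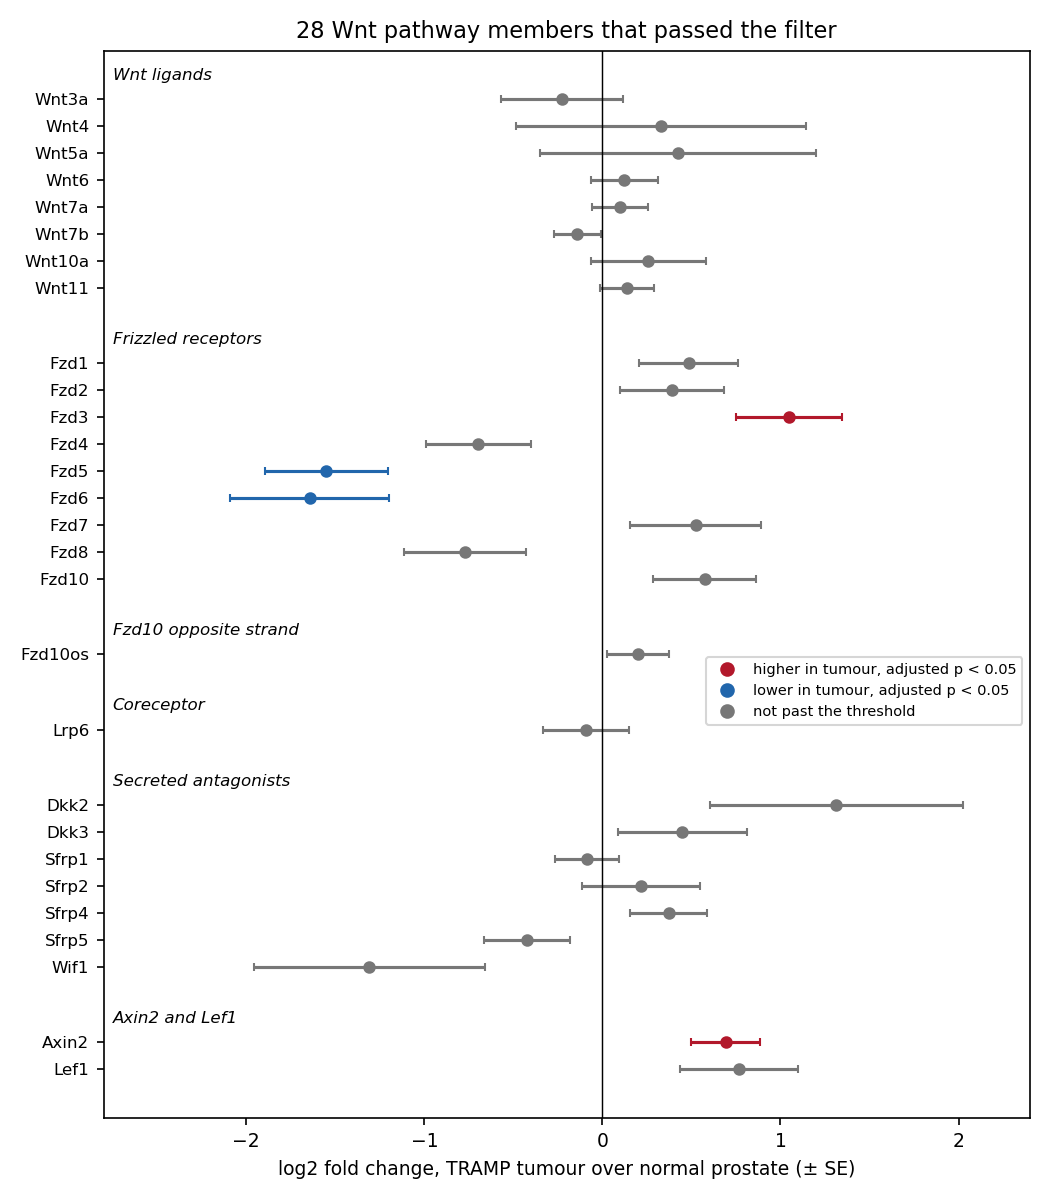
Log2 fold change, TRAMP tumour over normal prostate, of the 28 measured Wnt ligand, receptor, antagonist and target genes, with its standard error as a bar (n = 9 arrays in each group). Genes are grouped by role, and the 4 that passed the limma threshold are marked: Fzd3 and Axin2 to the right of 0, Fzd5 and Fzd6 to the left.

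None of the 8 measured ligand genes passed the test. Wnt4, which is expressed in the developing urogenital tract, had log2 signals from 5.64 to 11.56 with a median of 10.56 in tumours, against 7.54 to 10.85 with a median of 9.03 in normal prostate. The tumours lay on both sides of the normal range: tumours 1, 9 and 2 lay at 5.64, 6.03 and 7.05, below every normal sample, while tumours 4, 6, 7 and 8 lay at 10.94 to 11.56, above every normal sample. The log2 fold change was 0.33 ± 0.815 (SE; limma adjusted p = 0.802). Tumours 6, 7 and 8 also had the highest mean log2 signal of the 10 smooth muscle genes, 13.75 to 13.96, where tumours ranged from 8.5 to 13.96 and normal prostates from 9.96 to 13.76. None of those 10 genes passed the test, and the part of smooth muscle in the Wnt4 values was not tested. Without normal prostate 9 and tumours 3, 5, 6, 7 and 8 the Wnt4 estimate was -1.51 (limma adjusted p = 0.195). That omission leaves tumours 1, 2, 4 and 9.

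Wnt5a, the best known ligand of the branches that do not use beta-catenin, ranged from 4.64 to 11.29 with a median of 8.75 in tumours and from 5.82 to 11.57 with a median of 7.96 in normal prostate. The highest sample of each group was tumour 4 and normal prostate 3, the arrays highest in urothelial genes, and the lowest tumour was tumour 9. The log2 fold change was 0.42 ± 0.777 (SE; limma adjusted p = 0.728). The other 2 kept Wnt5a probe sets gave 1.0 and 0.4, in the same direction, and neither passed the test. The part of urothelium in these values was not tested.

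Wnt7b and Wnt7a, ligands known from epithelia, varied little. Wnt7b had log2 signals from 9.0 to 9.64 with a median of 9.44 in tumours and from 9.14 to 9.94 with a median of 9.53 in normal prostate, and its log2 fold change was -0.14 ± 0.132 (SE; limma adjusted p = 0.466). Wnt7a ranged from 7.53 to 8.62 with a median of 8.08 in tumours and from 7.5 to 8.33 with a median of 8.11 in normal prostate. Both groups overlapped almost completely for both genes. Wnt3a, Wnt6, Wnt10a and Wnt11 had log2 fold changes from -0.23 to 0.26 and limma adjusted p-values from 0.532 to 0.671. Without normal prostate 9 and tumours 3, 5, 6, 7 and 8 the Wnt3a estimate was -1.11 and was called lower (limma adjusted p = 0.00761). That omission leaves tumours 1, 2, 4 and 9, the lowest in Wnt3a at 5.84 to 6.57, and Wnt3a was dim in all of them. Over all 18 arrays, with dim values raised to the 40th percentile, the Wnt3a difference was 0.03. The other 11 ligand genes, Wnt1, Wnt2, Wnt2b, Wnt3, Wnt5b, Wnt8a, Wnt8b, Wnt9a, Wnt9b, Wnt10b and Wnt16, lay below the filter. Wnt2 was above the 40th percentile on 2 tumour and 5 normal arrays, with its highest value of 9.69 in tumour 7, and Wnt5b on 1 tumour and 0 normal arrays.

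Of the 4 genes that changed, 3 encode Frizzled receptors. Of the 9 measured Frizzled genes 1 rose and 2 fell, 33.3% against 24% of all genes tested. With only 9 genes, nothing is read from that difference. Fzd6, a receptor known for hair patterning and planar cell polarity in the mouse, had log2 signals of 8.38, 11.14, 10.19, 10.96, 10.33, 10.59, 10.38, 10.66 and 7.31 in tumours 1 to 9, against 12.15, 11.88, 11.19, 11.75, 11.83, 12.11, 12.07, 11.64 and 10.11 in normal prostates 1 to 9. Tumours 9 and 1 were lowest, and the groups overlapped only through normal prostate 9. The brightest probe set averaged 9.99 ± 1.28 in tumours and 11.64 ± 0.643 in normal prostate (SD, n = 9 each), a log2 fold change of -1.64 ± 0.447 (SE; limma adjusted p = 0.0126). The other 2 kept Fzd6 probe sets gave -0.3 and 0.0 and did not pass the test. With the mean of the kept probe sets the log2 fold change was -0.65 (limma adjusted p = 0.0839), and with the actin ratio as a covariate -1.42 (limma adjusted p = 0.0713).

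Fzd5, a receptor studied in the eye and the gut of the mouse, had log2 signals of 7.27, 7.89, 8.0, 8.78, 8.4, 9.0, 8.62, 9.08 and 6.61 in tumours 1 to 9, against 9.99, 10.14, 9.29, 9.8, 9.98, 10.15, 10.24, 10.08 and 7.96 in normal prostates 1 to 9. As for Fzd6, tumours 9 and 1 were lowest and normal prostate 9 was the lone normal sample inside the tumour range. Fzd5 averaged 8.18 ± 0.829 in tumours and 9.73 ± 0.722 in normal prostate (SD, n = 9 each), a log2 fold change of -1.55 ± 0.346 (SE; limma adjusted p = 0.00381). The call was kept with the actin ratio as a covariate (limma adjusted p = 0.0328).

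Normal prostate 9 was the normal array with the lowest mean of luminal markers, 10.15, and the highest mean of seminal vesicle genes, 12.09. As the lone overlapping normal sample for both receptors, it alone kept the groups from lying apart: the highest tumour was at 9.08 and the lowest of the other normal samples at 9.29 for Fzd5, and at 11.14 and 11.19 for Fzd6. With it left out, 2.17% of all genes had tumours fully below normal prostate, and since the sample was chosen by its overlap, nothing is read from that share. The luminal marker mean was also lowest among tumours in tumours 9 and 1, at 8.01 and 9.37, the samples lowest in both receptors. Luminal markers averaged 10.43 ± 1.2 in tumours and 12.24 ± 0.88 in normal prostate (SD, n = 9 each). Of the 6 kept, 1 was called lower, Hoxb13. On normal prostate 9 Pbsn and Hoxb13 were 4.18 and 4.5, against normal medians of 10.79 and 12.9. Krt8, Krt18, Krt19 and Epcam were 13.15, 13.21, 12.93 and 12.08, against 13.62, 14.04, 13.24 and 13.19. Cd24a and Tgm4 lay close to their medians. In tumours the largest falls, fitted without the filter, were -5.81 for Pbsn and -3.68 for Hoxb13, and Cd24a gave 0.4. The part of luminal markers in the fall of Fzd5 and Fzd6 was not tested.

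Fzd3, a receptor known for axon guidance and planar polarity in the mouse, rose. Its log2 signals were 10.98, 9.23, 9.24, 10.16, 9.75, 9.07, 9.08, 8.45 and 10.9 in tumours 1 to 9, against 8.47, 8.51, 9.27, 8.43, 9.02, 8.24, 8.24, 8.72 and 8.55 in normal prostates 1 to 9. Tumours 1, 9 and 4 were highest, tumours 2, 3, 6, 7 and 8 lay within the normal range, and so the groups overlapped. The brightest probe set averaged 9.65 ± 0.869 in tumours and 8.61 ± 0.347 in normal prostate (SD, n = 9 each), a log2 fold change of 1.05 ± 0.298 (SE; limma adjusted p = 0.0162). The other 2 kept Fzd3 probe sets did not follow it, with 0.24 and -0.29, and with the mean of all 3 the log2 fold change was 0.33 (limma adjusted p = 0.139). With the actin ratio as a covariate it was 1.02, of nearly the same size (limma adjusted p = 0.0594). Without normal prostate 9 and tumours 3, 5, 6, 7 and 8 it was 1.71 (limma adjusted p = 0.00121). The tumours left there are 1, 2, 4 and 9, among them the highest in Fzd3, tumours 1, 9 and 4.

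Tumours 9, 1 and 4 also had the highest means of neuroendocrine genes, at 10.39, 10.23 and 8.95. The other tumours lay at 6.03 to 6.92 and normal prostates at 6.22 to 6.96. Of 11 listed neuroendocrine genes 10 were measured, but only 2 passed the filter and were tested, and 1 of the 2 was called higher. The part of these cells in the Fzd3 values was not tested.

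**Figure D2:**
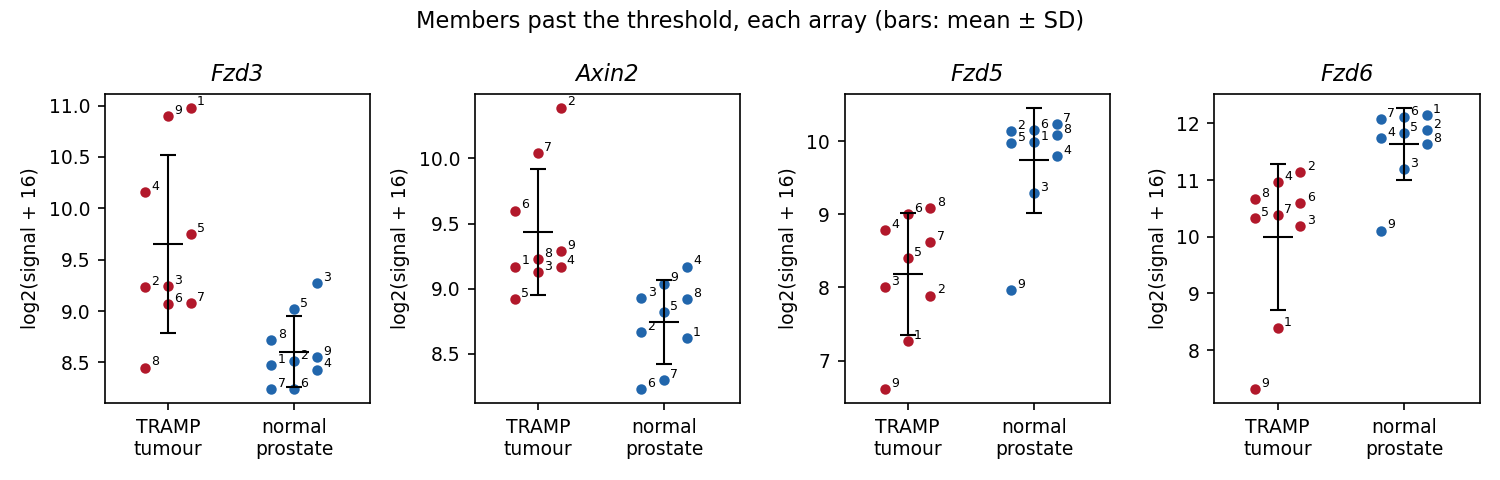
Log2 signal of Fzd3, Axin2, Fzd5 and Fzd6 on each array, tumours left and normal prostate right in each panel, with a point per array and the mean ± SD (n = 9 each). Normal prostate 9 lies inside the tumour range for Fzd5 and Fzd6, at 7.96 and 10.11.

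The other 6 Frizzled genes and Lrp6 did not pass the test. Fzd1 ranged from 9.24 to 12.11 with a median of 10.77 in tumours, against 9.99 to 10.58 with a median of 10.17 in normal prostate. Its tumours spread to both sides of a narrow normal range, with tumour 2 highest and tumour 9 lowest, and the log2 fold change was 0.48 ± 0.277 (SE; limma adjusted p = 0.214). Fzd7 ranged from 7.2 to 10.38 with a median of 9.56 in tumours and from 7.95 to 9.77 with a median of 8.97 in normal prostate, with tumour 9 lowest (limma adjusted p = 0.315). Both were called higher when tumour 9 was left out, with limma adjusted p-values of 0.0484 for Fzd1 and 0.0391 for Fzd7.

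Fzd4, a receptor for Norrin in the blood vessels of the retina, ranged from 7.28 to 9.59 with a median of 8.83 in tumours and from 8.61 to 10.65 with a median of 9.37 in normal prostate. The groups overlapped, and the log2 fold change was -0.7 ± 0.297 (SE; limma adjusted p = 0.0953). Without normal prostate 9 and tumours 3, 5, 6, 7 and 8 it was -1.19 (limma adjusted p = 0.0208). The highest normal samples were normal prostates 2, 4 and 9, at 10.65, 9.88 and 9.86, whose means of adipocyte genes were also the highest, at 13.0, 12.72 and 11.98. Their means of endothelial genes, at 8.56, 8.32 and 8.85, were the highest of the normal samples too. Tumours 6 and 8, the tumours highest in Fzd4, had adipocyte means of 6.74 and 6.27 and endothelial means of 7.58 and 7.63. The part of fat or of vessels in the Fzd4 values was not tested. Fzd2, Fzd8 and Fzd10 gave log2 fold changes of 0.39, -0.77 and 0.57, with limma adjusted p-values from 0.107 to 0.348. Without normal prostate 9 and tumours 3, 5 and 7 the Fzd10 estimate was 0.84 (limma adjusted p = 0.0471). Fzd8 was dim on 6 tumour and 3 normal arrays, and with dim values raised to the 40th percentile its difference was -0.27. Lrp6 lay at 9.14 to 10.65 with a median of 9.93 in tumours and at 9.15 to 10.64 with a median of 9.88 in normal prostate, nearly the same range, and its log2 fold change was -0.09 ± 0.242 (SE; limma adjusted p = 0.818). The transcript Fzd10os gave 0.2 (limma adjusted p = 0.422). Lrp5 and Fzd9 lay below the filter, above the 40th percentile on 4 tumour arrays each and on 1 and 2 normal arrays.

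None of the 7 measured antagonist genes passed the test, although the estimates for Wif1 and Dkk2 were beyond 1 in size on the log2 scale. Wif1, a secreted protein that binds Wnts, had log2 signals from 5.23 to 10.4 with a median of 8.07 in tumours, against 7.04 to 10.29 with a median of 9.78 in normal prostate. Tumours 9, 4 and 1 and normal prostate 3 were lowest, tumour 2 lay just above the normal range, and the groups overlapped. The log2 fold change was -1.31 ± 0.648 (SE; limma adjusted p = 0.149). Without normal prostate 9 and tumours 3, 5 and 7 it was -1.97, with a limma adjusted p of 0.0489.

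Dkk2, which in the mouse acts on Lrp coreceptors, ranged from 5.53 to 10.59 with a median of 7.42 in tumours, against 4.38 to 8.4 with a median of 6.8 in normal prostate. Tumours 7, 4, 2 and 3 lay above every normal sample and the other 5 tumours inside the normal range. The log2 fold change was 1.31 ± 0.709 (SE; limma adjusted p = 0.186). The gene was dim on 4 tumour and 5 normal arrays, and with dim values raised to the 40th percentile of the array the difference was 0.86.

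The Sfrp genes encode secreted proteins with a Frizzled-like domain. Sfrp1 lay at 8.65 to 9.99 with a median of 9.62 in tumours and at 9.02 to 9.91 with a median of 9.78 in normal prostate, and its log2 fold change was -0.09 ± 0.179 (SE; limma adjusted p = 0.756). Its other 3 kept probe sets gave 0.28 to 0.33, of opposite sign, and none passed the test. Sfrp2 spread more widely in tumours, from 7.16 to 10.4 with a median of 9.21, than in normal prostate, from 8.15 to 9.28 with a median of 8.74, and its log2 fold change was 0.22 ± 0.330 (SE; limma adjusted p = 0.669). For Sfrp2 it was 0.83 on the bright-spike arrays alone (limma adjusted p = 0.0441) and -0.55 on the dim-spike arrays alone (0.674). Sfrp4 ranged from 7.71 to 9.17 with a median of 8.1 in tumours and from 7.47 to 8.36 with a median of 7.99 in normal prostate (limma adjusted p = 0.220). Sfrp5 and Dkk3 gave log2 fold changes of -0.42 and 0.45, with limma adjusted p-values of 0.208 and 0.385. Sfrp5 was highest in normal prostates 2 and 9, at 8.67 and 8.55. Dkk1 was below the filter and was above the 40th percentile on 0 tumour and 3 normal arrays, and Dkk4 was above it on no array.

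Axin2, the feedback inhibitor and common reporter of beta-catenin signalling, rose by a small amount. Its log2 signals were 9.17, 10.39, 9.13, 9.17, 8.92, 9.6, 10.04, 9.23 and 9.29 in tumours 1 to 9, against 8.62, 8.67, 8.93, 9.17, 8.82, 8.23, 8.3, 8.92 and 9.04 in normal prostates 1 to 9. Tumours 2, 7 and 6 were highest, and the groups overlapped: tumours 3 and 5 lay below normal prostate 4, which was level with tumours 1 and 4, and tumour 5 also lay below normal prostates 3 and 9. Axin2 averaged 9.44 ± 0.485 in tumours and 8.75 ± 0.321 in normal prostate (SD, n = 9 each), a log2 fold change of 0.69 ± 0.195 (SE; limma adjusted p = 0.0153). The call ended with the actin ratio as a covariate, with an estimate of 0.47 (limma adjusted p = 0.116). It also ended, with estimates of about the same size, in the bright-spike arrays alone (0.62, limma adjusted p = 0.134) and without tumour 4 and normal prostates 1, 3 and 5 (0.75, limma adjusted p = 0.0540).

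Lef1, a transcription factor that is also a target of the pathway, had log2 signals from 6.41 to 10.27 with a median of 8.08 in tumours, against 6.86 to 7.84 with a median of 7.23 in normal prostate. Tumour 2 stood far above the rest and tumour 8 below every normal sample, and tumours 3, 4, 5 and 7 also lay above the normal range. Lef1 was dim on 1 tumour array, that of tumour 8, and on 4 normal arrays. On its other probe set, which lay below the filter, tumour 8 was at 7.13, above the normal maximum of 6.74. The log2 fold change was 0.77 ± 0.332 (SE; limma adjusted p = 0.1), and without tumour 8 the limma adjusted p was 0.0236. It was 1.36 on the bright-spike arrays alone (limma adjusted p = 0.0334) and -0.07 on the dim-spike arrays alone (0.954), and 1.26 without normal prostate 9 and tumours 3, 5, 6, 7 and 8 (0.0229). Lef1 is also expressed by T cells. Of the 10 genes of the T cell list 8 were measured, 3 were tested and 0 were called, and Cd4 and Cd2 were dim on all 18 arrays. Means of that list were 5.96 to 7.5 in tumours and 6.63 to 7.25 in normal prostate. In tumour 2 the mean was 6.56.

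Fibroblast genes, 10 of 10 measured and 3 called higher, had means of 9.75 to 11.37 in tumours and 8.05 to 10.87 in normal prostate. Their part in the values of the ligand and antagonist genes, many of which stroma expresses, was not tested.

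**Figure D3:**
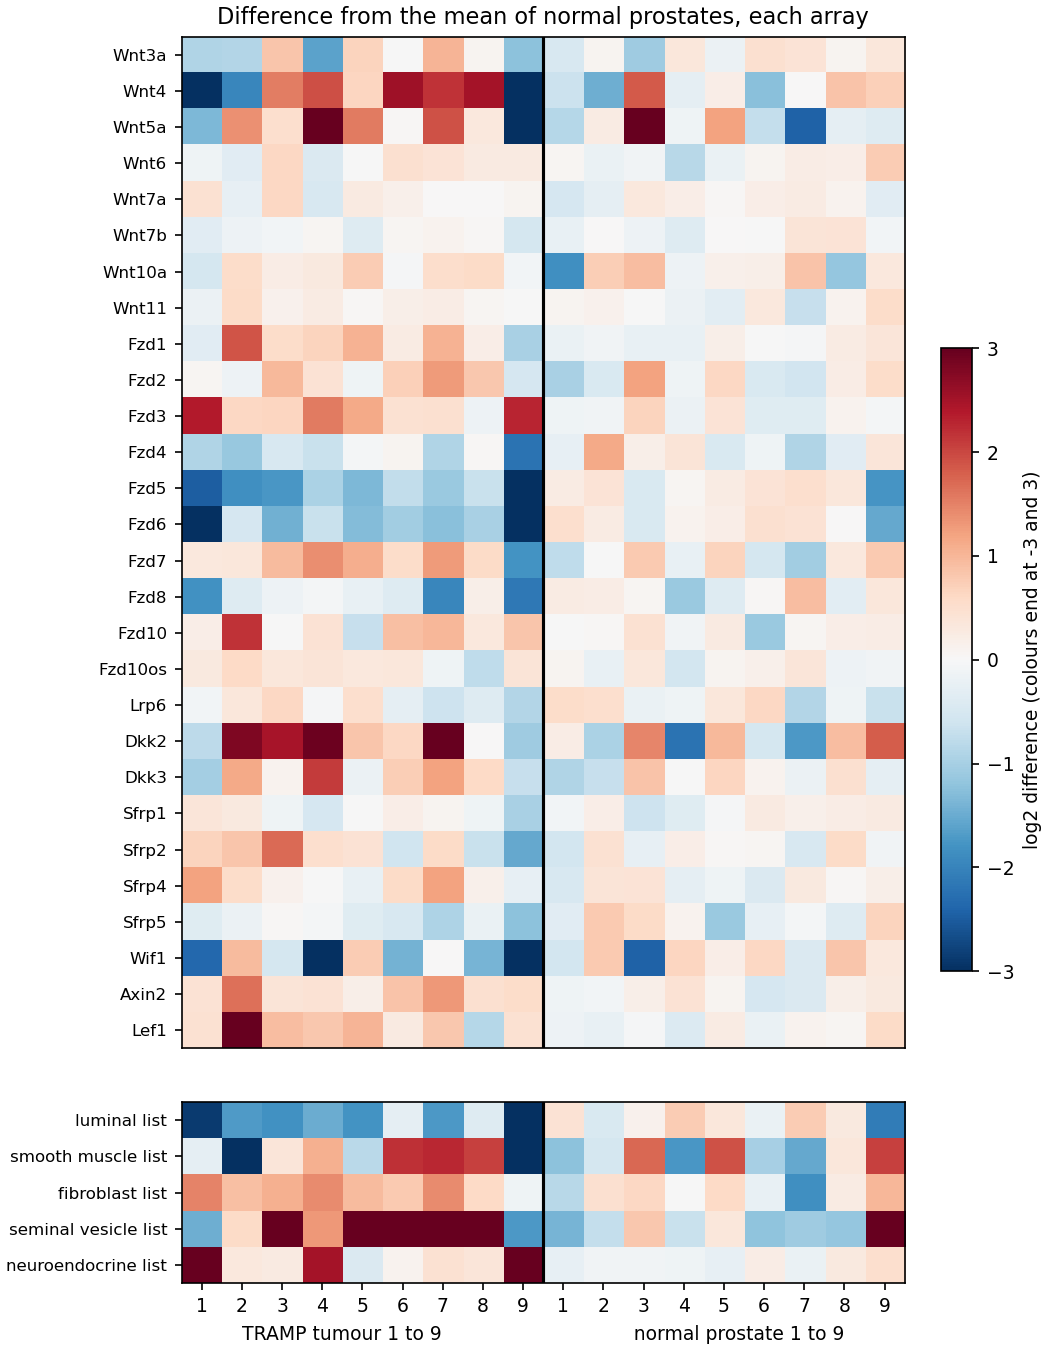
Log2 signal on each array minus the mean of the 9 normal prostates, for the 28 measured genes above and for the means of 5 marker gene lists below, with tumours left and normal prostates right; red is higher, blue is lower, and colours end at -3 and 3. Fzd5 and Fzd6 are lowest in tumours 1 and 9, which also have the lowest Wnt4, and Axin2, Lef1, Fzd1 and Fzd10 are among the genes highest in tumour 2.

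The tumours differed more among themselves than normal prostates did. The SD was larger in tumours for 21 of the 28 genes, 75%, against 74.4% of all genes tested, so the share was that of the background. The median SD of the 28 genes was 0.81 in tumours and 0.52 in normal prostate, against 0.51 and 0.37 over all genes. Wnt4, Wnt5a, Wif1 and Dkk2 had the largest SDs among tumours, 2.42, 1.96, 1.82 and 1.8, with 1.06, 1.58, 1.03 and 1.43 in normal prostate. These 4 are secreted ligands or antagonists.

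Single tumours carried recurring extremes. Tumour 9 was the lowest tumour for 16 of the 28 genes, 57.1%, as for 24.6% of all genes tested. These were Wnt5a, Wnt7b, Fzd1, Fzd2, Fzd4, Fzd5, Fzd6, Fzd7, Fzd8, Lrp6, Sfrp1, Sfrp2, Sfrp4, Sfrp5, Wif1 and Dkk2. The median signal and 40th percentile of that array were also the lowest of the 18, the percentile at 104.3 before the log. Tumour 1 was the lowest tumour for Wnt4 and the highest for Fzd3. Tumour 2 was the highest of all 18 arrays for 7 of the 28 genes, 25%, as for 8.66% of all genes: Axin2, Lef1, Fzd1, Fzd10, Fzd10os, Wif1 and Wnt11. These 2 patterns were picked after the values were seen and are given without a test. On tumour 2 the mean of smooth muscle genes was 8.5 and that of neuroendocrine genes 6.79.

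**Figure D4:**
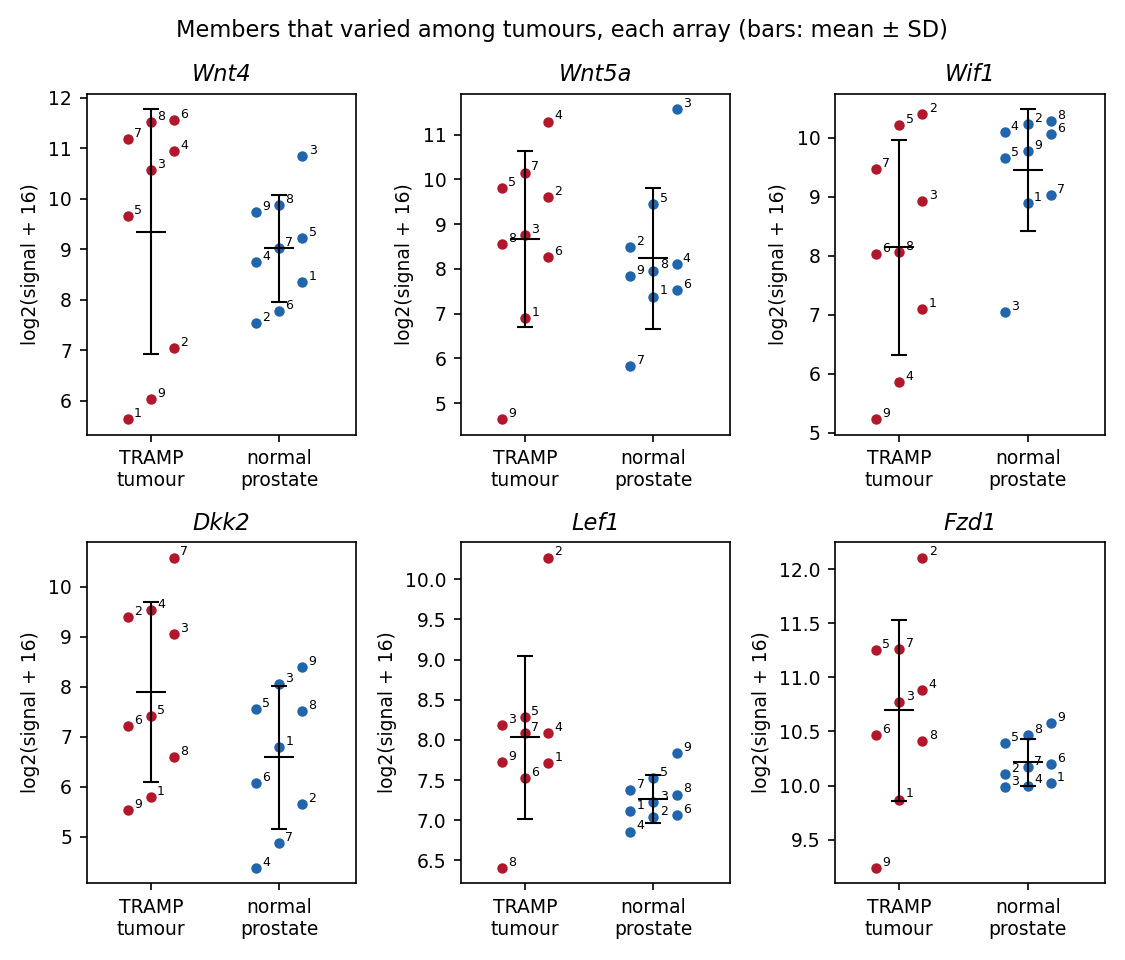
Log2 signal of Wnt4, Wnt5a, Wif1, Dkk2, Lef1 and Fzd1 on each array, tumours left and normal prostate right in each panel, with a point per array and the mean ± SD (n = 9 each). The tumours reach from 5.64 to 11.56 for Wnt4, and the groups overlap in every panel.

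The other genes of the pathway were taken from lists by role and held 91 measured genes. Of these, 14 rose and 8 fell, 24.2% against 24% of all genes, and their median log2 fold change was 0.1. Among other receptors and modulators, 1 of 19 measured genes rose and 0 fell, and among genes of Wnt secretion 0 of 6 rose and 1 fell. Of 36 intracellular components 6 rose and 6 fell, of 14 genes of planar cell polarity 3 rose and 1 fell, and of 23 reported target genes 4 rose and 1 fell. The medians of these lists were 0.1, -0.27, 0.06, 0.35 and 0.44. In the same list order, the shares called were 5.26%, 16.7%, 33.3%, 28.6% and 21.7%.

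Ror1, a receptor for Wnt5a, ranged from 6.78 to 10.22 with a median of 8.09 in tumours and from 6.0 to 8.52 with a median of 7.06 in normal prostate. The groups overlapped, tumours 2, 3 and 7 were highest, and the log2 fold change was 1.36 ± 0.437 (SE; limma adjusted p = 0.0302). The call ended without any one of tumours 2, 3 and 7 or normal prostates 1, 4 and 7, with limma adjusted p-values from 0.0525 to 0.0598. It was 0.176 with the actin ratio as a covariate. Tmed5, a gene of the Wnt secretion list, fell by 0.62 on the log2 scale (limma adjusted p = 0.0263). The limma adjusted p was 0.128 with the mean of its probe sets and 0.0507 without normal prostate 4.

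Ctnnb1, Apc and Gsk3b, of beta-catenin and the complex that breaks it down, did not pass the test. Ctnnb1, which encodes beta-catenin, lay at 13.41 to 14.16 with a median of 13.85 in tumours and at 13.2 to 13.99 with a median of 13.78 in normal prostate, with a log2 fold change of 0.03 ± 0.126 (SE; limma adjusted p = 0.879). Apc, the scaffold of that complex, gave 0.16 (limma adjusted p = 0.554), and the kinase gene Gsk3b 0.33 (limma adjusted p = 0.312). Gsk3b was above every normal sample in tumours 1, 2, 3, 4, 7 and 9 and below every normal sample in tumours 6 and 8. Btrc, which encodes an F-box protein that marks beta-catenin for breakdown, fell by 0.51 on the log2 scale (limma adjusted p = 0.00986), a gene named after its value was seen. Its means were 7.93 in tumours and 8.44 in normal prostate. Fbxw11, a brighter F-box gene of the same list with means of 12.86 and 13.04, gave -0.18 (limma adjusted p = 0.408).

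Of the intracellular genes that changed, Cxxc4, an inhibitor of Dishevelled also called Idax, ranged from 6.37 to 9.04 with a median of 7.49 in tumours, against 7.94 to 10.73 with a median of 9.57 in normal prostate. Normal prostate 9 was the lowest normal sample, and the log2 fold change was -1.91 ± 0.392 (SE; limma adjusted p = 0.00219). The 5 measured Groucho corepressor genes were grouped after their values were seen. Of these 5, 1 rose and 2 fell, where 24% of all genes were called, and nothing is read from that count. The log2 fold change was 0.98 for Tle1 (limma adjusted p = 0.00467), -1.1 for Tle3 (limma adjusted p = 0.00839) and -1.24 for Tle4 (limma adjusted p = 0.00545). Tle2 and Tle5, with 0.35 and -0.05, did not pass the test. The Tle1 call ended without normal prostate 9 and tumours 3, 5, 6, 7 and 8 (0.55, limma adjusted p = 0.0697), and the Tle4 call with the mean of its probe sets (-0.95, limma adjusted p = 0.0868). Tnik, a kinase that binds Tcf proteins, rose by 1.47 on the log2 scale (limma adjusted p = 0.00635), with tumour 2 alone at 7.24 and the other tumours at 9.71 to 10.42, against 7.46 to 9.19 in normal prostate. That call ended on the bright-spike arrays alone (1.34, limma adjusted p = 0.106) and without normal prostate 9 and tumours 3, 5, 6, 7 and 8 (1.16, limma adjusted p = 0.0880). Dact1, a Dishevelled-binding protein on the intracellular and target lists, fell by 1.03 (limma adjusted p = 0.0291), a call that ended without tumour 8 or any one of normal prostates 1, 2, 4, 6 and 7, with adjusted p-values from 0.0519 to 0.0566.

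Vangl2, a core gene of planar cell polarity, had every tumour above every normal sample, as 1.45% of all genes did. It ranged from 8.59 to 10.97 with a median of 8.94 in tumours and from 7.57 to 8.47 with a median of 8.09 in normal prostate, with a log2 fold change of 1.3 ± 0.284 (SE; limma adjusted p = 0.00324). Tumours 2, 9 and 1 were highest. Mapk8, a Jun kinase gene, rose by 0.69 (limma adjusted p = 0.0124), a call that ended with the actin covariate (0.54, limma adjusted p = 0.0852) and without tumour 4 and normal prostates 1, 3 and 5 (0.72, limma adjusted p = 0.0531). Daam1, a formin that binds Dishevelled, fell by 0.9 (limma adjusted p = 0.00658), a call that ended with the mean of its probe sets (-0.26, limma adjusted p = 0.454) and with the actin covariate (-0.63, limma adjusted p = 0.0570). The small GTPase gene Rac1 rose by 0.65 (limma adjusted p = 0.000694), but its probe set may match several transcripts, and without such probe sets the log2 fold change was 0.1 (limma adjusted p = 0.644).

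Among the target genes, Birc5, which encodes survivin and is also a gene of cell division, lay fully above normal prostate, at 8.55 to 13.03 with a median of 10.33 in tumours and 6.0 to 8.27 with a median of 7.37 in normal prostate. Its log2 fold change was 3.32 ± 0.577 (SE; limma adjusted p = 0.000678), and tumours 9, 2 and 1 were highest. Sox4, a transcription factor, ranged from 12.15 to 14.18 with a median of 12.89 in tumours and from 9.77 to 12.57 with a median of 10.57 in normal prostate, and rose by 2.37 ± 0.394 (SE; limma adjusted p = 0.000474). Id2, an inhibitor of helix-loop-helix factors, rose by 1.74 (limma adjusted p = 0.0112), a call that ended with the actin covariate (1.54, limma adjusted p = 0.0618) and without normal prostate 9 and tumours 3, 5, 6, 7 and 8 (1.39, limma adjusted p = 0.0609). The classic targets Myc and Ccnd1 did not pass the test, with log2 fold changes of -0.21 (limma adjusted p = 0.681) and 0.29 (limma adjusted p = 0.784). Ccnd1, the cyclin D1 gene, was highest in tumours 3, 7 and 5 at 14.02, 13.78 and 13.24 and in normal prostate 9 at 12.65, the arrays with the highest means of seminal vesicle genes.

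**Figure D5:**
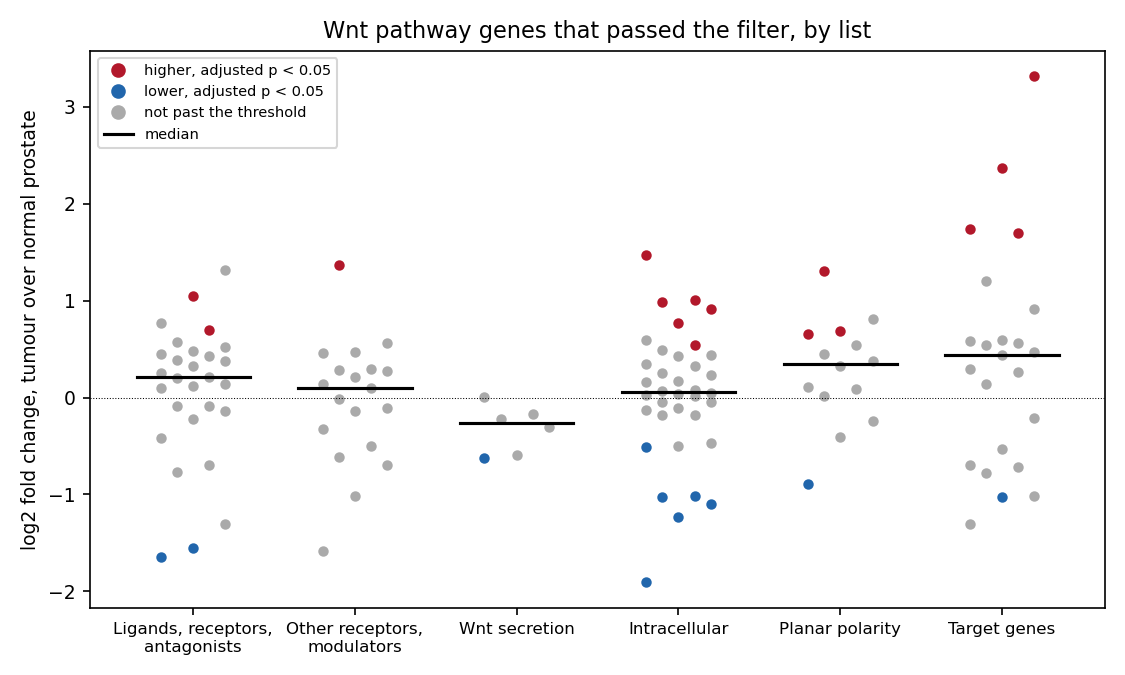
Log2 fold change, TRAMP tumour over normal prostate, of the 28 measured ligand, receptor and antagonist genes in the first column and of the measured genes of 5 other Wnt pathway lists in the rest, a point per gene, with the median of each list and the genes that passed the limma threshold marked (n = 9 arrays in each group). The medians run from -0.27 for secretion to 0.44 for target genes, with 0.21 in the first column.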

How the data were processed

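Total RNA extracted with Trizol from 9 TRAMP tumours and 9 normal mouse prostates was biotin-labelled for Affymetrix arrays, per the labels' protocols. The deposited values are linear probe set intensities, and the submitters' processing notes name MAS5, with no version given in the sources used here. MAS5 scales each array by 1 factor, and the 2% trimmed mean was 500 on every array, so overall brightness was removed while dim probe sets stayed noisy. The number of arrays limits the precision. Of 45101 probe sets, 34945 name 1 gene in the platform table, 932 several and 9160 none, and 64 are controls. Gene identifiers of 34741 matched a table of mouse assembly GRCm38.p6, consulted for symbols, none of which had to be updated. No build is named for the arrays, so the only coordinates are those of the RefSeq promoters.

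Log2(signal + 16) was computed from the intensities, probe sets above the 40th percentile of their array on at least 9 of 18 arrays were kept, and 1 probe set per gene, the brightest naming that gene alone, was tested two-sided by lmFit and eBayes of limma 3.58.1 (R 4.3.3) with group as the sole factor and Benjamini-Hochberg adjustment over 12793 genes at 0.05. In a test on simulated data of 12793 genes for this comparison, 58% of 100 genes given a log2 change of 1, and 92% of 100 given a log2 change of 2, were called, and 4 of 154 calls were false. No other gene was changed there, while 3067 genes were called in the data. The same adjusted threshold therefore stands for another unadjusted p, and these shares need not hold for the data. The members and gene lists were chosen with earlier results of these data known. Named in full were the members past the threshold, up to 4 others per role by mean level, members with probe sets of opposite sign, the 4 with the largest tumour SD, up to 4 genes per other list by absolute t, and Ctnnb1, Apc, Gsk3b, Myc and Ccnd1. Of 126 list symbols, 3 had no single-gene probe set here. Alternatives were a pseudocount of 1 or 64, omission of the filter or a stricter one at the 60th percentile, quantile normalization, arrays centred on their 75th percentile, the mean of probe sets, omission of probe sets that may match several transcripts, an intensity trend with robust eBayes, the replicate number or spike class as a block, each spike class alone, the actin ratio as a covariate, and omission of single arrays or of those with high seminal vesicle, urothelial or skeletal muscle genes. Plots used matplotlib 3.10.9 (Python 3.11.15).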

Additional observations from a re-analysis of the deposited data

Results flagged for a closer look

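Among the 47 named genes, 94 groups of 9 arrays were examined for a highest or lowest array that stood apart from the other 8 by more of the range than a Dixon test at 95% allows. It did so in 10 groups, 10.6%, where the nominal rate for independent groups is about 1 in 20. Many of the genes were picked by their values, the groups share arrays, and no share over all genes was computed. Nothing is therefore read from the difference. Of these, 3 were in tumours and 7 in normal prostate.

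In tumours, Lef1 was 10.27 in tumour 2, with the next tumour at 8.28, Tnik was 7.24 in tumour 2, with the next at 9.71, and Fzd7 was 7.2 in tumour 9, with the next at 9.29. In normal prostate, normal prostate 9 was the lowest array for 5 genes: Fzd5 at 7.96, Fzd6 at 10.11, Ctnnb1 at 13.2, Daam1 at 9.35 and Myc at 7.84. The other normal samples began at 9.29, 11.19, 13.66, 10.44 and 8.92 for these genes. Normal prostate 9 had a mean log2 signal of seminal vesicle genes of 12.09, against 5.63 to 7.85 in the other normal samples, and the part of that tissue in these values was not tested. Fzd10 was 6.15 in normal prostate 6, with the next at 7.16, and Wif1 was 7.04 in normal prostate 3, with the next at 8.9.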

How the results depend on the processing

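The direction of Fzd3, Axin2, Fzd5 and Fzd6 was the same under every alternative run. Against 4 member genes past the threshold (2 higher, 2 lower), the count was 2 (1 higher, 1 lower) with the mean of the kept probe sets, 1 (0 higher, 1 lower, Fzd5) with the actin ratio as a covariate, 7 (3 higher, 4 lower, adding Lef1, Fzd4 and Wnt3a) without normal prostate 9 and tumours 3, 5, 6, 7 and 8, and 0 (0 higher, 0 lower) on the spike-dim arrays alone. On those 4 tumour and 3 normal arrays limma called 0 of all 12793 genes, with 2 of 28 members and 1639 of all genes at an unadjusted p under 0.05. The omission that gave 7 members left tumours 1, 2, 4 and 9, among them tumours 9, 1 and 4, the highest in neuroendocrine genes. Wnt3a was dim in those 4 tumours. Without normal prostates 1, 3 and 5 and tumour 4, 1 member was higher and 2 lower. Leaving out single arrays gave 4 to 6 members, 2 to 4 higher and 2 to 2 lower, and kept all 4 calls; 4 were higher without tumour 9, which added Fzd1 and Fzd7. On the spike-bright and spike-dim arrays the log2 fold changes were 1.21 and 0.87 for Fzd3, 0.62 and 0.79 for Axin2, -1.82 and -1.10 for Fzd5, and -1.62 and -1.53 for Fzd6. The other Wnt pathway genes past the threshold numbered 22, 14 without normal prostates 1, 3 and 5 and tumour 4, 10 with the actin covariate, 0 on the spike-dim arrays, and 16 to 23 with single arrays left out. With no filter 5 of 83 member probe sets were called, against 4 of 43 with it, the added one for Wnt9a. The values did not show that the replicate numbers pair the samples, though they cannot exclude it. The correlation of deviations of same-numbered samples exceeded 0.1 in 1 of 9 pairs. Only that pair, number 8 at 0.31, matched best with its own number. With the replicate block, 3 members were called, 1 higher and 2 lower, and Axin2 had a limma adjusted p of 0.0537. Dim probe sets limit what can be said of the 15 genes below the filter, none of which was called when fitted without it. The cause of these changes was not tested.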
